A study of Homo sapiens with 5 samples.

Results

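The aldehyde dehydrogenase family was followed through 9 genes: ALDH1A1, ALDH1A2, ALDH1A3, ALDH1B1, ALDH2, ALDH3A2, ALDH6A1, ALDH7A1 and ALDH9A1. They were taken by symbol from a table of read counts for 25343 genes, a list drawn up with earlier results of these data known. All 9 were in the table. The table covers SW620, a human colon carcinoma cell line, whose genotype label is tet-MUC1shRNA, a tetracycline-inducible short hairpin RNA against the transmembrane mucin MUC1. All libraries carry this label, and no library of the parental line was analysed here. The 2 libraries named pos (pos 1 and pos 3) were set against the 3 named neg (neg 1, neg 2 and neg 3). Cells received doxycycline, which induces such a hairpin, or vehicle, but the labels do not say which name stands for which, so both names are kept. RNA was sequenced as stranded mRNA libraries from cells grown in triplicate, and whether each library is its own culture is not written, so the p-values measure the spread between these libraries.

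Aldehyde dehydrogenases oxidise aldehydes to carboxylic acids with NAD or NADP as the acceptor, through a cysteine in the active site. The ALDH1A enzymes make retinoic acid from retinaldehyde, and others clear acetaldehyde, fatty aldehydes and the aldehydes formed when amino acids and amines are broken down. High aldehyde dehydrogenase activity in a fluorescent cell assay is widely used to sort stem-like cells of normal and cancerous colon, with ALDH1A1, ALDH1A3 and ALDH1B1 among the genes most often linked to that activity.

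ALDH7A1, the lysine breakdown enzyme of the family, was the only member of the 9 that passed the test, at 79.8 and 87.9 CPM (reads of a gene set against the scaled total of its library) in pos 1 and pos 3, against 49.2, 48.4 and 45.0 CPM in neg 1, neg 2 and neg 3. It rose 1.76-fold in pos. ALDH2, ALDH9A1, ALDH3A2 and ALDH6A1 had pos and neg libraries that did not overlap, the first 2 higher and the last 2 lower in pos, without passing the test. ALDH1A2 and ALDH1A3 stood above every neg library in pos 1 and below every neg library in pos 3. ALDH1B1 was level in CPM, and ALDH1A1 had at most 10 reads in any library. As a plain share of reads, with no scaling, ALDH9A1 was below every neg library in pos 3, and ALDH1B1 in both pos libraries. By that share ALDH1A3 in pos 1 was not above neg 3.

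The members are related but distinct at the DNA level, which decides whether reads can be told apart between them. Over 36 pairs, their coding sequences were 50.6% to 72.5% identical, highest between ALDH1B1 and ALDH2, and the longest identical run was 25 bases. To show this kinship at a matched place, the 39 coding bases around the catalytic cysteine are given for the 8 members in which a script found the family's published cysteine motif, read from the GENCODE 44 transcripts on the coding strand, 5′ to 3′, with the cysteine codon in capitals.
ALDH1A1: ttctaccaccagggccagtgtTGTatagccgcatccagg
ALDH1A2: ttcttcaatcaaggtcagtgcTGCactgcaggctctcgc
ALDH1A3: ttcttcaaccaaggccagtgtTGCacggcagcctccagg
ALDH1B1: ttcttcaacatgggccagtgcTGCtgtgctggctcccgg
ALDH2: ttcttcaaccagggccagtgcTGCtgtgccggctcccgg
ALDH3A2: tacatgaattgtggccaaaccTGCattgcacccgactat
ALDH6A1: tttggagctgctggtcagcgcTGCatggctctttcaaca
ALDH9A1: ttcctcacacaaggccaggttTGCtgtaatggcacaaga
The stretch of ALDH1A3 shares 31 of its 39 bases with that of ALDH1A1, that of ALDH2 shares 29, and those of ALDH3A2 and ALDH6A1 share 16 and 17. ALDH1A1 alone among the 8 spells the cysteine as TGT, where the others use TGC. The motif did not match in ALDH7A1, so no stretch is shown for it.

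Totals of 12190025 and 13470767 reads in pos 1 and pos 3, and of 10888704 to 14137678 in the neg libraries, were counted in genes. The scaling (TMM) factors on these totals were 1.014 in pos 1, 0.7046 in pos 3 and 1.086 to 1.144 in neg. The low factor of pos 3 raises all its CPM values against those of the other libraries. MUC1, the target of the hairpin, was at 2.18 and 1.37 CPM in pos and at 12.3, 15.8 and 17.5 CPM in neg (log2 fold change -3.07, SE 0.34, edgeR adjusted p = 0.027). The pos libraries differed more from each other (Pearson r of log2 CPM across genes 0.912) than the neg libraries did (0.983 to 0.993). They also differed by transcript length: the fifth of genes with the shortest transcripts had a median log2 ratio to the neg mean of 0.37 in pos 1 and 1.19 in pos 3, against -0.15 to 0.14 in neg, and the fifth with the longest had -0.26 and -1.25, against -0.12 to 0.14. Each member is therefore also given with this trend removed, once on transcript length and once on coding length, and its part in a result was not otherwise tested. Of 10 colon epithelial markers all 10 had reads (sums of 7909.8 to 16430.7 CPM in pos and 6067.7 to 7893.1 CPM in neg). Of the marker lists of other cell types, 4 of 6 fibroblast genes had reads (sums of 13.5 to 18.7 CPM in pos and 25.2 to 29.1 CPM in neg; COL1A2 and COL3A1 at 0), as did 3 of 6 immune genes (47.7 to 62.5 and 49.3 to 59.4 CPM, mostly CD68; PTPRC and CD3E at 0), 4 of 4 endothelial genes (0.89 to 1.48 and 2.73 to 4.02 CPM) and 3 of 4 hepatocyte genes (10.8 to 11.7 and 14.1 to 18 CPM; TTR at 0). Their part in the results was not tested. In such bulk RNA, fewer cells with a transcript and less of it per cell cannot be told apart.

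Of the 9 members, 8 passed the filter on low counts and were tested among 13604 genes. The call was made for 1 of these 8 (12.5%), higher in pos, and for 9.20% of all tested genes (5.06% higher and 4.13% lower), so the members' share was near that of all genes. Without scaling beyond library size, when 4.45% of tested genes were called, the call for ALDH7A1 was lost, the median log2 fold change of all genes moved to -0.41, from -0.05 with scaling, and the split of all calls was 148 higher and 458 lower, against 689 and 562. In scaled CPM, pos and neg libraries did not overlap for 5 of the 8 (62.5%), 3 above and 2 below neg. This is close to the 56.0% of all tested genes (26.7% above and 29.3% below). The median log2 fold change was -0.11 over the 8 members and -0.05 over all tested genes.

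Summed over the 9 members, the level was 508.2 and 489.3 CPM in pos (498.8 ± 13.4, SD, n = 2) and 439.6, 434.3 and 418.1 CPM in neg (430.7 ± 11.2, SD, n = 3). Both pos sums lay above all neg sums on this scaled measure. As a share of all reads in genes, with no scaling, the members made up 0.0515% and 0.0345% in pos and 0.0477%, 0.0489% and 0.0478% in neg, so that pos 1 was above and pos 3 below every neg library.

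Levels were compared between genes as CPM per kb of coding length. In neg the order began with ALDH2 at 63.0 ± 4.89 (SD, n = 3), followed by ALDH3A2 at 51.1 ± 1.99, ALDH1B1 at 39.9 ± 3.93 and ALDH1A3 at 37.6 ± 2.5. It went on with ALDH7A1 at 29.4 ± 1.37, ALDH9A1 at 28.5 ± 1.52, ALDH6A1 at 20.3 ± 1.2, ALDH1A2 at 9.14 ± 0.471 and ALDH1A1 at 0.348 ± 0.164. ALDH1B1 and ALDH1A3 overlapped between libraries, as did ALDH7A1 and ALDH9A1, and the other neighbours did not.

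In pos, ALDH2 again had the highest level per kb of coding length, 104.5 ± 25.3 (SD, n = 2), and ALDH7A1 was second at 51.9 ± 3.56, while 4 members stood above it in neg. ALDH9A1 (39.5 ± 2.44), ALDH1B1 (37.7 ± 0.372), ALDH3A2 (35.4 ± 9.21) and ALDH1A3 (29.6 ± 20.2) followed, each overlapping its neighbour, so no order among these 4 can be given. ALDH6A1 (14.0 ± 1.18), ALDH1A2 (8.21 ± 4.80) and ALDH1A1 (0.356 ± 0.106) closed the order in pos as in neg. The place of ALDH2 depended on the length used. Per kb of the canonical transcript, whose 9561 nt in ALDH2 exceed 95.2% of tested genes, ALDH2 had rank 4 in pos (17.0 ± 4.10) and rank 5 in neg (10.2 ± 0.794). By that length ALDH9A1 was first in pos (25.6 ± 1.58), while in neg ALDH1B1 (20.4 ± 2.01), ALDH3A2 (20.1 ± 0.782) and ALDH9A1 (18.5 ± 0.985) each overlapped the next and no first place can be given.

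**Figure D1:**
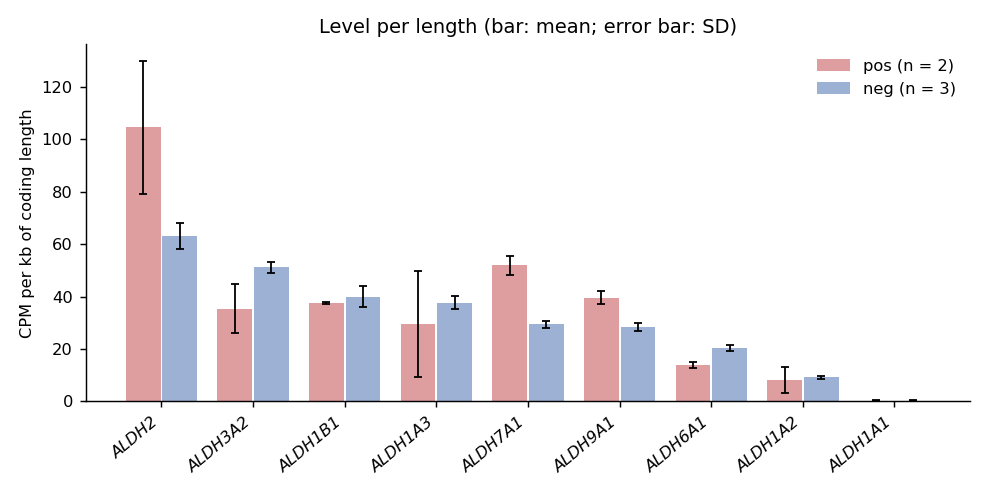
Level of each member as CPM per kb of coding length, with pos left of neg; bars are means and error bars SD (pos n = 2, neg n = 3). ALDH2 was highest in both groups (104.5 in pos, 63.0 in neg) and ALDH1A1 lowest (0.356 and 0.348).

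The retinaldehyde enzymes come first. ALDH1A1, which is encoded at chr9:72900671-73080442 (GRCh38, GENCODE 44, minus strand, 13 exons), had 8 and 4 reads in pos and 10, 10 and 3 reads in neg. These were 0.647 and 0.422 CPM in pos and 0.699, 0.629 and 0.241 CPM in neg. Pooled over libraries, 12 reads in pos gave 0.549 CPM (95% exact Poisson interval 0.284 to 0.959, counting error only) and 23 reads in neg gave 0.539 CPM (0.342 to 0.809). A difference in ALDH1A1 was not detectable at this depth, and the gene was left out of the test by the filter.

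ALDH1A3, the second retinaldehyde enzyme (chr15:100877714-100916626, plus strand, 13 exons), was the main ALDH1A transcript of these cells. It held 77.6% of the summed level per kb of coding length of ALDH1A1, ALDH1A2 and ALDH1A3 in pos and 79.9% in neg. Its libraries held 834 and 223 reads in pos and 776, 910 and 770 in neg, or 67.5 and 23.5 CPM in pos and 54.3, 57.2 and 61.9 CPM in neg. In scaled CPM, pos 1 was thus the highest library of the 5 and pos 3 the lowest, and the groups overlapped. The group means, 45.5 ± 31.1 CPM in pos (SD, n = 2) and 57.8 ± 3.85 CPM in neg (n = 3), did not differ beyond that spread (log2 fold change -0.34, SE 0.43, edgeR adjusted p = 0.588).

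ALDH1A2, the retinaldehyde enzyme best known from the embryo (chr15:57953424-58497866, minus strand, 13 exons), had the same arrangement at a lower level. It was at 18 and 7.49 CPM in pos (223 and 71 reads) and at 14.1, 15 and 13.5 CPM in neg (202, 238 and 168 reads). Its means were 12.8 ± 7.47 CPM in pos (SD, n = 2) and 14.2 ± 0.732 CPM in neg (n = 3), with a log2 fold change of -0.15 (SE 0.38, edgeR adjusted p = 0.798). It held 21.5% of the summed ALDH1A level in pos and 19.4% in neg. LIPC, a lipase gene on the other strand that overlaps ALDH1A2, had 132 and 136 reads in pos and 64, 92 and 62 in neg. If the counting ignored strand, reads of these 2 genes could not be told apart where they overlap.

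Set against the neg mean, pos 1 had log2 ratios of 0.23 for ALDH1A3 and 0.34 for ALDH1A2, and pos 3 had -1.29 and -0.91. The log2 difference of pos 3 from pos 1 was -1.52 for ALDH1A3 and -1.25 for ALDH1A2, and 8.48% and 12.7% of all tested genes had a more negative one. With the trend on transcript length removed these gaps were -1.40 and -1.16, and with that on coding length -1.49 and -1.22. Both transcripts, of 3469 and 3386 nt, are near the median of 3240 nt, where the removal changes little for any gene. The part of length in these gaps was not tested. For both genes the sign of the difference between pos and neg depended on the pos library. Without pos 3 the log2 fold changes were 0.20 for ALDH1A3 and 0.32 for ALDH1A2, and without pos 1 they were -1.25 and -0.88.

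**Figure D2:**
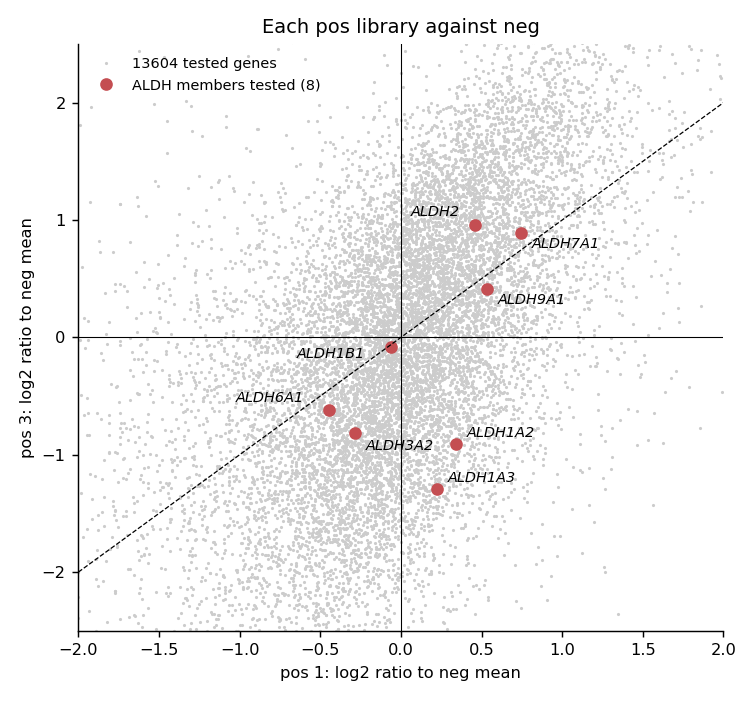
Log2 ratio to the neg mean in pos 1 (horizontal) and in pos 3 (vertical) for 13604 tested genes (grey) and the 8 tested members (coloured), with 1056 genes outside the axes. ALDH2 (0.46, 0.96) and ALDH7A1 (0.75, 0.89) were above 0 in both libraries, while ALDH1A3 (0.23, -1.29) and ALDH1A2 (0.34, -0.91) were above 0 in pos 1 only.

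The mitochondrial pair that handles acetaldehyde differed from each other. ALDH2, the main enzyme that clears acetaldehyde made from ethanol (chr12:111766887-111817532, plus strand, 13 exons), was at 134 and 189.9 CPM in pos (1661 and 1801 reads) and at 105.8, 96.6 and 90.7 CPM in neg (1513, 1536 and 1129 reads). Both pos libraries were above every neg library, and pos 3 was further from neg than pos 1. Means were 162.1 ± 39.2 CPM in pos (SD, n = 2) and 97.7 ± 7.59 CPM in neg (n = 3), a 1.66-fold difference (log2 0.73, SE 0.22) that edgeR did not call (adjusted p = 0.0803).

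The call for ALDH2 moved with the method. DESeq2 gave a log2 fold change of 0.77 and called it (adjusted p = 0.0407), in a fit that called 23.2% of all tested genes. With the trend on transcript length removed the log2 fold change was 1.69 (SE 0.41, edgeR adjusted p = 0.0411, 14.8% of tested genes called), and with the trend on coding length it was 0.80 (SE 0.21, adjusted p = 0.0601). With transcript length removed, the log2 ratios of ALDH2 to the neg mean were 0.77 in pos 1 and 2.28 in pos 3. They were 0.46 and 0.96 with no length correction, so the correction moved the pos libraries further apart. The value of 1.69 thus owed more to pos 3 than to pos 1. With no length correction, the log2 fold change of ALDH2 was 1.01 without pos 1 and 0.43 without pos 3. ALDH2 has an ordinary coding length of 1551 nt, near the 1413 nt median of tested genes, inside a canonical transcript of 9561 nt. Of the 50-base words of that transcript, 9.50% also occur in transcripts of other genes.

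ALDH1B1, a second mitochondrial enzyme of broad aldehyde use that is known from the stem cells at the base of colon crypts (chr9:38392702-38398661, plus strand, 2 exons), was level. It was at 58.9 and 58.1 CPM in pos (728 and 551 reads) and at 65.9, 64.7 and 54.8 CPM in neg (943, 1029 and 682 reads). In scaled CPM both pos libraries lay within the neg range. As a share of all reads in genes, with no scaling, both lay below every neg library. Means were 58.5 ± 0.577 CPM in pos (SD, n = 2) and 61.8 ± 6.09 CPM in neg (n = 3), with a log2 fold change of -0.08 (SE 0.19, edgeR adjusted p = 0.779). Its transcript of 3028 nt is close to the median of 3240 nt.

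**Figure D3:**
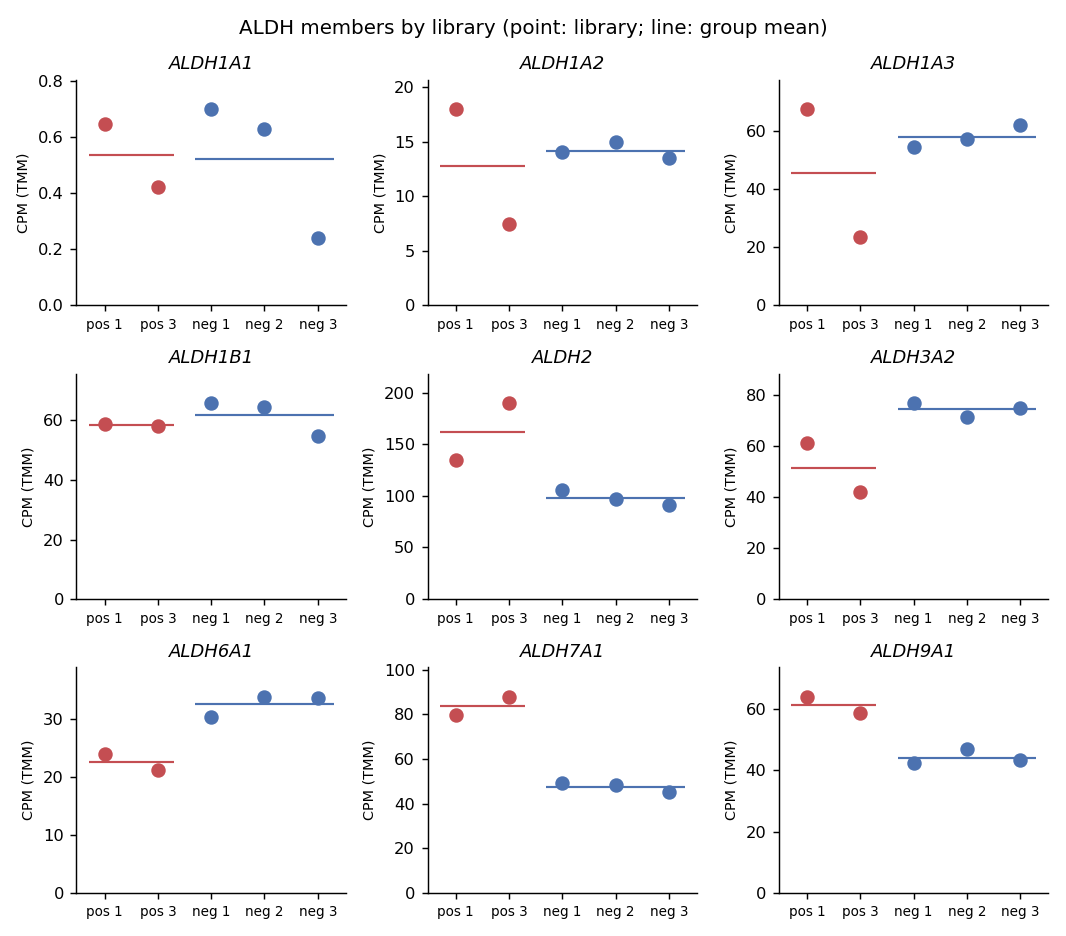
CPM (TMM-scaled) of the 9 members in each library, with 1 panel a gene, pos libraries left of neg libraries, points for libraries and lines for group means; each panel has its own axis from 0. ALDH7A1 stood at 79.8 and 87.9 CPM in pos and at 45.0 to 49.2 CPM in neg, while the pos points of ALDH1A3 lay at 67.5 and 23.5 CPM on either side of neg.

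ALDH3A2, the membrane-bound enzyme that oxidises long-chain fatty aldehydes and is lost in Sjögren-Larsson syndrome (chr17:19648136-19685760, plus strand, 10 exons), was lower in both pos libraries than in any neg library. It was at 61.0 and 42.1 CPM in pos (754 and 399 reads) and at 76.8, 71.2 and 75 CPM in neg (1099, 1132 and 933 reads). Its means were 51.5 ± 13.4 CPM in pos (SD, n = 2) and 74.3 ± 2.90 CPM in neg (n = 3). With a log2 fold change of -0.53 (SE 0.23) it was not called by edgeR (adjusted p = 0.159). Removing the trend on transcript length gave -0.40.

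Among the enzymes of amino acid breakdown, ALDH7A1 was higher and ALDH6A1 lower in pos in scaled CPM, and only ALDH7A1 was called. ALDH7A1, also called antiquitin, oxidises the semialdehyde formed from lysine, and its loss causes pyridoxine-dependent epilepsy (chr5:126531200-126595362, minus strand, 18 exons). It had 986 and 834 reads in pos and 703, 770 and 560 in neg. Means were 83.9 ± 5.76 CPM in pos (SD, n = 2) and 47.5 ± 2.21 CPM in neg (n = 3), and pos 1 and pos 3 were 0.75 and 0.89 above the neg mean on the log2 scale.

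The log2 fold change of ALDH7A1 was 0.82 (SE 0.18, edgeR adjusted p = 0.0457), smaller than the median of 1.49 of all genes called higher. It was 1.22 (adjusted p = 0.0194) with the edgeR fit corrected for transcript length and 0.91 (adjusted p = 0.0342) with that for coding length, which called 9.14% of tested genes. DESeq2 (adjusted p = 0.00615) and limma-voom (adjusted p = 0.0494, in a fit that called 7.93% of tested genes) also called it. The edgeR call was lost when any of neg 1, neg 2 or neg 3 was left out (adjusted p = 0.185, 0.241 and 0.223), fits in which no gene of the table was called, although the log2 fold change stayed between 0.78 and 0.84. Of the 50-base words of its transcript, 7.42% are shared, with the pseudogene ALDH7A1P1 only.

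ALDH6A1, the methylmalonate semialdehyde dehydrogenase of valine and thymine breakdown (chr14:74056847-74084492, minus strand, 12 exons), was at 23.9 and 21.2 CPM in pos (295 and 201 reads) and at 30.3, 33.8 and 33.6 CPM in neg (434, 537 and 418 reads). The pos libraries lay close together and below every neg library, with means of 22.5 ± 1.89 CPM in pos (SD, n = 2) and 32.6 ± 1.92 CPM in neg (n = 3). The log2 fold change of -0.53 (SE 0.20) did not pass (edgeR adjusted p = 0.119). Its transcript of 5462 nt is longer than 78.3% of tested genes, and with the trend on transcript length removed the value was -0.05 (edgeR adjusted p = 0.871). With the trend on coding length it was -0.45. With transcript length removed, the log2 ratios of ALDH6A1 to the neg mean were -0.27 in pos 1 and 0.16 in pos 3.

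ALDH9A1 oxidises trimethylaminobutyraldehyde on the way to carnitine and aminobutyraldehyde on the way to GABA (chr1:165662216-165698562, minus strand, 11 exons). It was at 64.1 and 58.7 CPM in pos (792 and 557 reads) and at 42.4, 46.9 and 43.3 CPM in neg (607, 746 and 539 reads). In scaled CPM both pos libraries were above neg, with means of 61.4 ± 3.79 CPM in pos (SD, n = 2) and 44.2 ± 2.36 CPM in neg (n = 3). As a share of all reads in genes, with no scaling, pos 1 was above and pos 3 below every neg library. The 1.39-fold difference (log2 0.47, SE 0.18) was not called by edgeR (adjusted p = 0.126). Its transcript of 2395 nt is shorter than that of most tested genes, and with transcript length removed the value was 0.26, while coding length gave 0.54 (edgeR adjusted p = 0.0833).

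**Figure D4:**
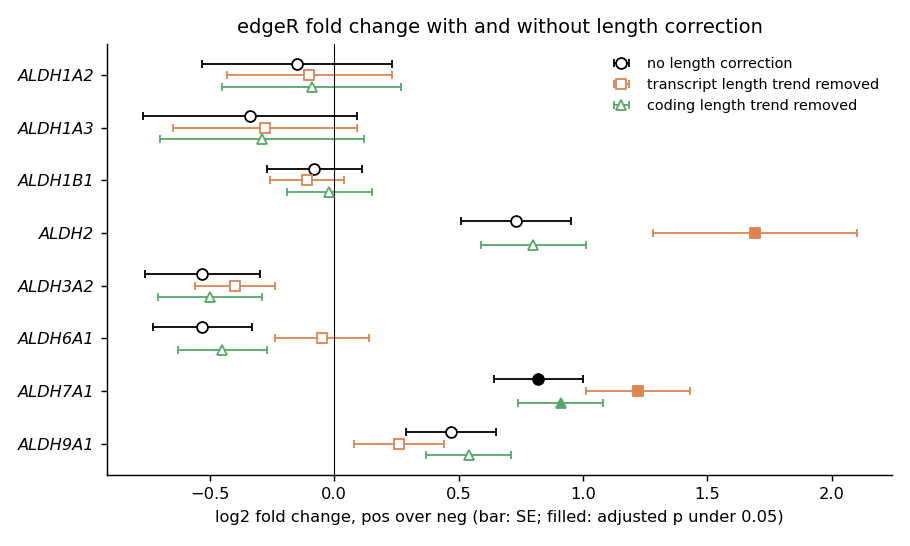
Log2 fold change, pos over neg, of the 8 tested members in edgeR fits without length correction, with the trend on transcript length removed and with that on coding length removed; bars are SE and filled symbols have adjusted p under 0.05. ALDH7A1 was called in each of these fits (0.82, 1.22 and 0.91), ALDH2 only with transcript length removed (1.69), and ALDH6A1 lay at -0.53, -0.05 and -0.45.

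By profile, the genes closest to ALDH2 across the 5 libraries were CGREF1, EIF2B5 and VTI1B, at Euclidean distances of 0.0345, 0.0396 and 0.0400 in log2 CPM among 10869 genes with a mean of at least 5 CPM. CGREF1, for example, was at 55.6 and 80.7 CPM in pos and at 44.3, 39.8 and 38 CPM in neg. Like ALDH2, all 3 were higher in pos 3 than in pos 1 and above neg in both, which follows from how they were picked. None of these 3 was called by edgeR (adjusted p = 0.0834, 0.0793 and 0.0849).

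The other 10 genes of the human family were also in the table, and 8 were tested. EdgeR and limma-voom called 0 of the 8. Of these, 2 (ALDH1L2 and ALDH16A1) had an unadjusted edgeR p under 0.05, as 34.6% of all tested genes did, and DESeq2 called 1, ALDH1L2 (adjusted p = 0.0134). ALDH1L2, the mitochondrial enzyme that oxidises formyltetrahydrofolate, was at 17.4 and 4.43 CPM in pos and at 29.1, 33.9 and 36.4 CPM in neg (log2 fold change -1.59, SE 0.55, edgeR adjusted p = 0.105). Both pos libraries were below neg, pos 3 far more so. Its transcript has 7428 nt, and with the trend on transcript length removed the log2 fold change was -1.07 (edgeR adjusted p = 0.0644). The log2 ratios of ALDH1L2 to the neg mean were then -0.65 in pos 1 and -1.74 in pos 3. ALDH16A1 was at 27.0 and 33.2 CPM in pos and at 21.6, 19.4 and 13.1 CPM in neg (log2 0.74, SE 0.28, edgeR adjusted p = 0.123).

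ALDH5A1, the succinic semialdehyde dehydrogenase of GABA breakdown, showed in CPM the split between pos libraries seen for ALDH1A3. It had 35.4 and 13.2 CPM in pos and 22.3, 24.5 and 22.1 CPM in neg. Its log2 ratios to the neg mean in pos 1 and pos 3 were 0.62 and -0.79. With the trend on transcript length removed they were 0.78 and -0.09, where those of ALDH1A3 were 0.25 and -1.15. ALDH18A1, which makes the proline precursor pyrroline carboxylate, was the most abundant of these 10 by CPM. In scaled CPM it was level, at 164.3 and 133.5 CPM in pos and 159.1, 149.7 and 134.9 CPM in neg. ALDH3B1 and ALDH4A1 had log2 fold changes of 0.46 and -0.08 and were not called. Of the 2 untested genes, ALDH3B2 had 0 reads in pos and 1 in neg, and ALDH8A1 had 5 reads in pos and 10 in neg.

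Genes that work beside the members were read as 6 lists. Of all tested genes, 5.06% were called higher and 4.13% lower by edgeR, 7.56% and 7.22% with transcript length removed, 4.51% and 4.62% with coding length removed, 13.2% and 10.0% by DESeq2, 3.62% and 4.31% by limma-voom, and 1.09% and 3.37% by edgeR with library size only. The lists' counts are to be read against these shares. In the retinoid list, which holds the enzymes, carriers and receptors around retinaldehyde, 19 of 28 genes were tested, 4 were called higher and 0 lower, with a median log2 fold change of 0.82 (-0.05 over all genes). STRA6, a membrane receptor that takes up retinol, was at 67.6 and 96.7 CPM in pos and at 36.0, 35.8 and 27.8 CPM in neg (log2 1.31, SE 0.24, edgeR adjusted p = 0.039). Also called, and named after their values were seen, were FABP5, a fatty acid and retinoic acid carrier (log2 1.39), and RDH11, a retinal reductase (log2 0.82). Limma-voom and the fit with coding length removed each called 2 of the list higher, DESeq2 called 9, and with library size only 0 were called and the median was 0.42. With the trend on transcript length removed, the list's median was 0.33, 4 were called higher and FABP5 was no longer called (0.34, edgeR adjusted p = 0.361). The retinoid genes that rose stood beside ALDH1A2 and ALDH1A3, which were tested but not called. The sign of both depended on the pos library, and ALDH1A1 was not tested.

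Of the other aldehyde and alcohol enzymes, 15 of 23 were tested and 3 rose, with 0 lower and a median of 0.53. ADH5, the alcohol dehydrogenase that clears formaldehyde, was at 93.8 and 118.9 CPM in pos and at 57.3, 53.4 and 45.2 CPM in neg (log2 1.03, edgeR adjusted p = 0.0445). The aldehyde reductases AKR7A2 and AKR1B1, named after their values were seen, rose by 1.5 and 1.40 on the log2 scale. With the trend on transcript length removed, these 3 genes were also called (ADH5 at 0.88, AKR7A2 at 0.76 and AKR1B1 at 0.68) and the median was 0.30. Limma-voom called 1 of the list higher, DESeq2 called 5, and with library size only 0 were called and the median was 0.15.

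Around ALDH7A1 and ALDH9A1, 12 of 13 genes of lysine breakdown and carnitine synthesis were tested, and edgeR called 1 higher and 0 lower (median 0.21). The riser was TMLHE, the first enzyme of carnitine synthesis, at 19 and 17.4 CPM in pos and at 10.1, 8.80 and 9.56 CPM in neg (log2 0.94, edgeR adjusted p = 0.0457). The list's median was -0.06 with transcript length removed and 0.16 with coding length removed, each with 1 called higher. With library size only, 0 were called and the median was -0.15. Limma-voom called 1 higher. DESeq2 called 1 higher and 1 lower, DHTKD1 (log2 -0.75, DESeq2 adjusted p = 0.0176), named after its value was seen. Around ALDH6A1, 24 of 25 genes of valine and branched-chain amino acid breakdown were tested, and edgeR and limma-voom called 0 (10 at an unadjusted edgeR p under 0.05, and 4 called higher by DESeq2, as 13.2% of all tested genes were). Their median was 0.47, with the smallest p for HSD17B10 (log2 1.64, edgeR adjusted p = 0.0523). With transcript length removed, edgeR called 2 higher and the median was 0.16. These were HSD17B10, at the smaller log2 fold change of 0.62 (edgeR adjusted p = 0.0384), and DBT (0.84), named after its value was seen. With coding length removed edgeR also called 2 higher, HSD17B10 (1.24) and MCCC1 (0.97), with a median of 0.31.

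For polyamines and GABA, 13 of 14 genes were tested, and edgeR and limma-voom called 0 (5 at an unadjusted edgeR p under 0.05, and 3 called higher by DESeq2). The smallest p was that of GAD1, which makes GABA from glutamate (log2 0.99, edgeR adjusted p = 0.0539). With transcript length removed, edgeR called GAD1 higher (1.03, adjusted p = 0.0299) and SMOX, named after its value was seen, lower (-0.89), and with coding length removed it called GAD1 (1.14). The list's median was 0.36, and 0.02 with transcript length removed. Around ALDH3A2, 21 of 22 genes of fatty aldehyde and sphingolipid metabolism were tested, 1 rose and 0 fell, with a median of -0.08. PHYH, the peroxisomal enzyme that starts phytanic acid breakdown, was at 34.3 and 46.4 CPM in pos and at 12.2, 13.5 and 13.6 CPM in neg (log2 1.63, SE 0.22, edgeR adjusted p = 0.0326). Members of this list were called lower in other fits: 2 with transcript length removed, 1 with coding length removed, 3 by DESeq2 and 1 by limma-voom (median -0.48). ACSL3, an acyl-CoA synthetase named after its values were seen, was called lower in each of these 4 fits (log2 -0.85, -1.08, -1.27 and -1.32). With scaling by DESeq2 size factors, edgeR also called 1 gene of this list lower.

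**Figure D5:**
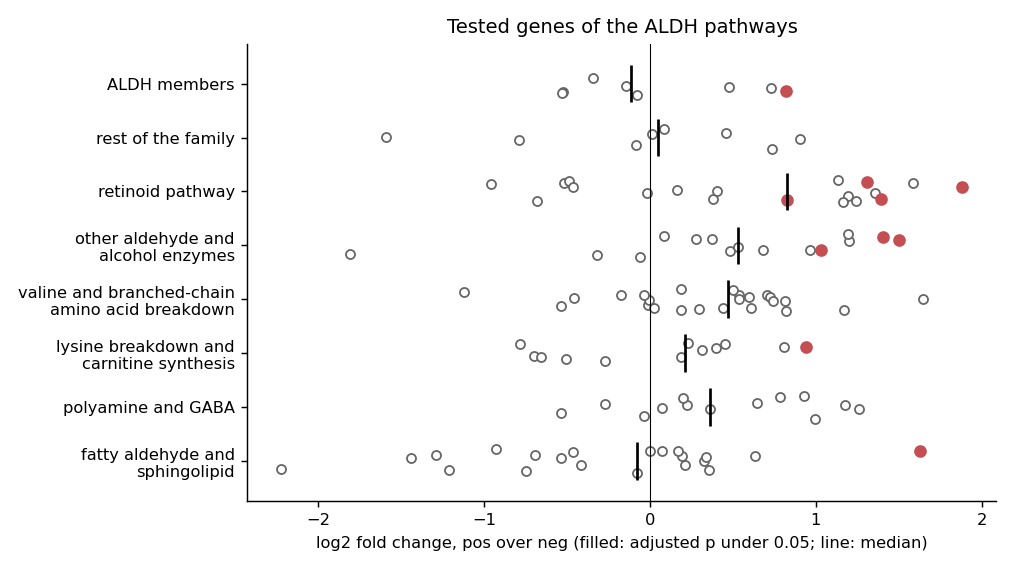
Log2 fold change, pos over neg, of the tested members, of the tested genes in the rest of the family and of those in the 6 lists, each on its own row; filled points have an edgeR adjusted p under 0.05 and vertical lines mark medians. The retinoid list had the highest median (0.82) and 4 filled points, and the members had 1, ALDH7A1.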

How the data were processed

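The authors deposited raw counts of reads per gene symbol for 5 libraries, made from Trizol RNA with the TruSeq Stranded mRNA kit and aligned with STAR, per the labels' protocols. Versions (STAR 2.5.2b, CASAVA 1.8.2, DESeq2 1.24.0) come from the submitters' processing notes. The build is GRCh38 in the labels' protocols and hg19 in those notes, so coordinates here are those of GENCODE 44 (GRCh38), not of the counts. Which program counted the reads, and whether it used strand, is not given in the sources used here. Without strand, reads of overlapping genes cannot be told apart.

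Of 25435 rows, 92 spike-in rows at 0 were left out. The main test used edgeR 4.0.16 under R 4.3.3: filterByExpr (minimum count 10, total 15; 13604 genes kept), TMM scaling, glmQLFit and glmQLFTest, pos against neg without a replicate block, two-sided, Benjamini-Hochberg adjustment over all tested genes at 0.05. SE is the log2 fold change over the square root of F. CPM values are TMM-scaled, and log2 CPM has a prior count of 2. Libraries of 10888704 to 14137678 reads make 3 counts worth 0.189 to 0.316 CPM. Intervals cover counting error only, since reads are not marked by molecule. No library pair looked like a duplicate (chi-square per degree of freedom 6.35 to 23.8 within neg and 162 within pos). The edgeR step was tested on simulated data.

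The members and all lists were chosen with earlier results of these data known, and give no independent support. All members were named. Other family genes were named if called or above 10 CPM in neg, the best-ranked gene of each list by p was named, as were the 3 genes nearest in profile to the member highest in neg and MUC1. Exceptions are marked in the text, and some genes are not reported here.

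Alternatives were DESeq2 1.42.0, limma-voom (limma 3.58.1), scaling by upper quartile, by DESeq2 size factors or by library size only, no filter or one of 5 CPM in 2 libraries, a replicate block, leaving out each library, adjusted p of 0.01, and removal of each library's lowess trend (span 0.3) of log2 CPM on canonical transcript length (known for 97.7% of tested genes). Removal on coding length (92.6%) was added after seeing the data, since the transcript of ALDH2 is mostly untranslated. Where a pos library is left out, the other is assumed to vary like neg. Shared sequence was counted as 50-base words of canonical transcripts found in any transcript of another gene.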

Additional observations from a re-analysis of the deposited data

How the results depend on the processing

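The count of members called by edgeR was 1 (ALDH7A1). It was 2 with DESeq2 and with the transcript length trend removed (ALDH2 and ALDH7A1), and 0 with library size only, with no filter (ALDH7A1 adjusted p = 0.0585) and at an adjusted p of 0.01. Over single libraries left out it ran from 0 to 7. It was 0 without any neg library, when edgeR called 0 genes (unadjusted p under 0.05 for 3033, 2510 and 2607 genes without neg 1, neg 2 and neg 3), 2 without pos 3 (ALDH7A1 and ALDH9A1) and 7 without pos 1, each of the last 2 measuring a single pos library. With length also removed it was 5 without pos 1 and 3 without pos 3, and with coding length 7 and 3. Genes called were 1251, against 3161 with DESeq2, 606 with library size only, 2011 with transcript length removed and 1 at an adjusted p of 0.01. They ran from 0 to 8819 over libraries left out (4386 without pos 3, 7224 and 4989 with transcript length also removed, 8182 and 4439 with coding length). The cause of these moves was not tested.

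The labels give no shared batch, so the replicate numbers were not taken to pair the libraries. Deviations from group means of same-numbered libraries correlated at -0.443 and -0.448. With 2 pos libraries their deviations are exact opposites, so these values cannot decide on a pairing. With the replicate number as a block, 87 genes and 0 members were called (ALDH7A1 0.83, edgeR adjusted p = 0.632), and with the block and transcript length removed 477 genes and 1 member (ALDH2, 1.53, edgeR adjusted p = 0.0216).

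Some log2 fold changes, none of them called in the fit of all 5 libraries, changed sign. Without pos 3, ALDH1A2 was 0.32 and ALDH1A3 0.20 (0.34 and 0.22 with transcript length, 0.36 and 0.24 with coding length removed). Without pos 1, edgeR called both lower, at -0.88 and -1.25. Without pos 1, ALDH1B1 was 0.04 with coding length removed and ALDH6A1 0.20 with transcript length removed. ALDH4A1 was 0.04 with coding length removed and without neg 1, and ran from -0.53 without pos 3 to 0.29 without pos 1 (0.30 and 0.45 with transcript and coding length removed). ALDH5A1 was -0.07 with limma-voom, -0.19 with library size only, -0.03 with the block, and ran from -0.75 without pos 1 to 0.59 without pos 3 (-0.05 and -0.64 with the 2 lengths). ALDH18A1 was -0.02 with upper quartile scaling, -0.34 with library size only, -0.01 with no filter, -0.05 without neg 3, and ran from -0.10 without pos 1 to 0.12 without pos 3 (-0.00 without pos 1 and with transcript length removed). The cause was not tested. Of the alternative values of tested members, 121 kept direction and side of the threshold, 24 newly passed it, 7 no longer did and 8 changed sign. Depth limits ALDH1A1, whose 3 to 10 reads a library allow no statement on a change.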
